A study of Botryllus schlosseri with 78 samples.

Results

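FF25 and FF27 are transcripts of Botryllus schlosseri, a colonial tunicate, and their FF names are taken to mean fester family, a group of receptors for allorecognition. They are 2 of the 45 FF transcripts in a table of 137, which also holds 69 transcripts named FcoR and 23 signalling and Fuhc transcripts. Both were chosen by their measured levels, because they stood high in some male colonies and at 0 in others, so their levels by male genotype and by kind of sample are described here without a test. Tests are given only for the stage of the budding cycle and for sorted cell fractions, whose contrasts were not the reason for the choice. The choice was still made with earlier results of these data known, so these tests are not fully independent of it.

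Allorecognition starts where the ampullae of adjacent colonies, the bulbs at the tips of their blood vessels, come into contact. Colonies that share an allele of the Fuhc locus fuse their vessels, and colonies that share none reject. Fester proteins are receptors in the vessels and blood that take part in this decision, and the family varies between individuals in which members are expressed. A colony also renews its bodies in a repeated budding cycle, whose stages run from A to D, and the old bodies are resorbed at stage D while the buds take over.

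The levels came from poly-A RNA sequencing of 77 libraries, and each value is read as a TMM-scaled TPM, a level per transcript length relative to the other transcripts of the library. Male colonies of the genotypes MDR, MADM and M001 gave 7 libraries each, 1 for each of the stages A1, A2, B1, B2, C1, C2 and D, all from whole colonies with all cells. Cells were sorted into positive and negative fractions by aldehyde dehydrogenase (ALDH) in 4 individuals, of which 2B and 6 are labelled winners and 1 and 7 losers. Cells sorted for integrin alpha-6 (IA6) gave 12 libraries, 8 positive from individuals 79C, 79G, 81A and 81C and 4 negative from 81A and 81C. Blood of 3 individuals, ampullae (16 libraries of SMGO, SMH, SB825-FDA, SB825-FEA and SB825-FX), whole bodies of SMGO, SMH, SKI and SB825 (12 libraries) and vascular cells sorted with the reagent named BSA (5 libraries) made up the rest. The labels name no treatment and no age. They do not say whether the stages of a male genotype were sampled from 1 colony or several, and no stage of a genotype was sampled again, so the spread over stages holds both the cycle and the differences between libraries.

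Library sums over the 137 transcripts lay between 308919 and 1466577. If the values are TPM, sums of this size mean that they are relative to this set. They are therefore not read as shares of all RNA in a sample. The same value can therefore be a different share of this set in different libraries. A value is still relative to the other transcripts of the set in its library, and a rise in those can lower it. Read totals are unknown, so a value of 0 means only that the transcript was listed at 0. Where it matters, the smallest value of 1 or more in that library, here called its detection level, is printed as a rough guide to how low a transcript could be seen. Fewer cells that carry a receptor and less of its RNA per cell cannot be told apart in these libraries. Reads of close relatives may be shared between family members, which was not tested. Traces included, FF25 was found without FF27 in 5 libraries and FF27 without FF25 in 11. Those libraries do not show whether reads were shared in MDR, where both were found. RefSeq symbols matched neither transcript, so no sequence or position is given. In 1 library with FF25, the ALDH-negative fraction of individual 7, the receptors went partly against the positive fraction of the same individual. Whether that library holds material of another individual or is labelled for the wrong one was not tested, so the ALDH result is also given without individual 7.

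FF25 was an MDR receptor among the males. Over the stages A1, A2, B1, B2, C1, C2 and D, its level in MDR was 26853, 16753, 22214, 24056, 25566, 28064 and 24225. It was listed at 0 in all 7 MADM and all 7 M001 libraries. No MDR library overlapped with a library of the other two genotypes, and the detection levels of those were 10.3 to 52.4 in MADM and 20.1 to 101.5 in M001. The MDR mean was 23961 ± 3716 (SD over stages, n = 7).

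FF27 was shared by MDR and MADM. Its level in MDR was 31277, 21783, 26829, 28632, 29995, 32941 and 28130 over the same stages. In MADM it was 11918, 8303, 9438, 8572, 10488, 13407 and 9269. In M001, also male, it was listed at 0 in all 7 libraries. The lowest MDR library stood above the highest MADM library, and the means were 28512 ± 3600 in MDR and 10199 ± 1872 in MADM (SD over stages, n = 7 each). Being male therefore did not go with either receptor in every genotype: the label of male receptors holds for 1 genotype with FF25 and for 2 of 3 with FF27.

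**Figure D1:**
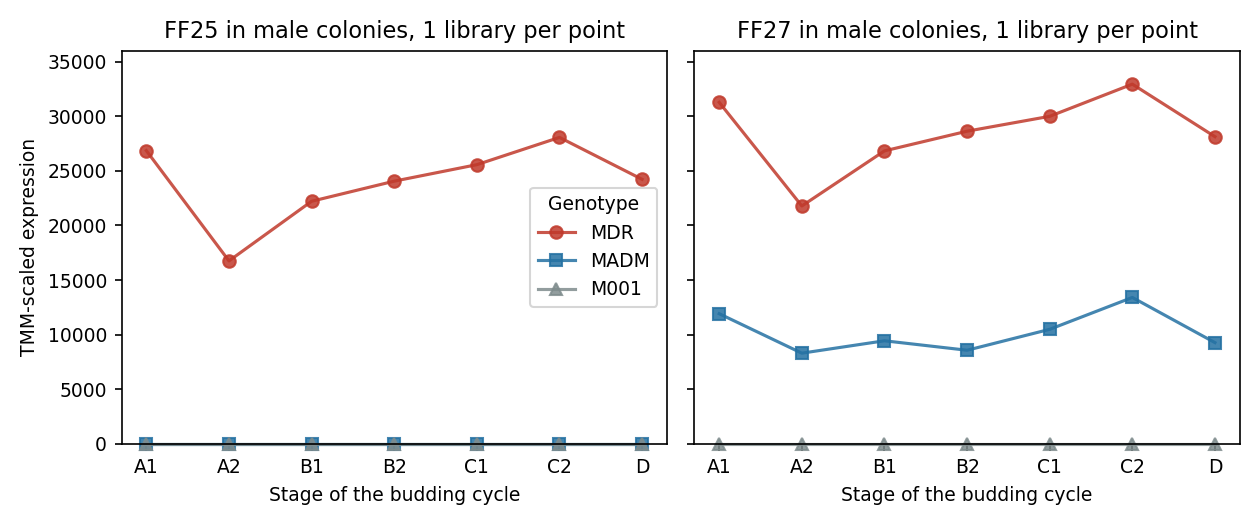
Level of FF25 and of FF27 (TMM-scaled expression) at 7 stages of the budding cycle in the male genotypes MDR, MADM and M001, 1 library per point. FF25 lay between 16753 and 28064 in MDR and at 0 elsewhere, and FF27 lay between 21783 and 32941 in MDR, between 8303 and 13407 in MADM and at 0 in M001.

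At the same stage, the level of FF27 in MDR was 2.62, 2.62, 2.84, 3.34, 2.86, 2.46 and 3.03 times that in MADM, from A1 to D. The ratio was above 1 at 7 of 7 stages and averaged 2.83 ± 0.297 (SD). With each library scaled to the sum of its 23 signalling and Fuhc transcripts instead, the ratios were 3.03, 2.39, 2.57, 2.92, 2.79, 2.65 and 2.49, with a mean of 2.69 ± 0.233. The size of the gap thus depended little on the scaling, while the stage at which it was widest moved to A1 from B2.

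Both receptors were among the most abundant FF transcripts of MDR. FF27 ranked first of all FF transcripts in 7 of 7 MDR libraries, and FF25 had rank 2 in 5 of them and rank 3 in the other two, A2 and B1. Together they made up 28.4% to 37.8% of the FF total of an MDR library (median 31.9%), with FF25 at 12.4% to 17.4% and FF27 at 16.1% to 20.4%. The next transcripts, FF4 and FF1, averaged 21760 ± 2281 and 17634 ± 2906 in MDR. In MADM, FF27 had ranks between 7 and 9 and made up 5.0% to 7.09% of the FF total. There FF17 was higher, at 28050 ± 2092 in MADM and 12450 ± 1302 in MDR. FF27 thus led the family in MDR and stood in its middle in MADM.

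**Figure D2:**
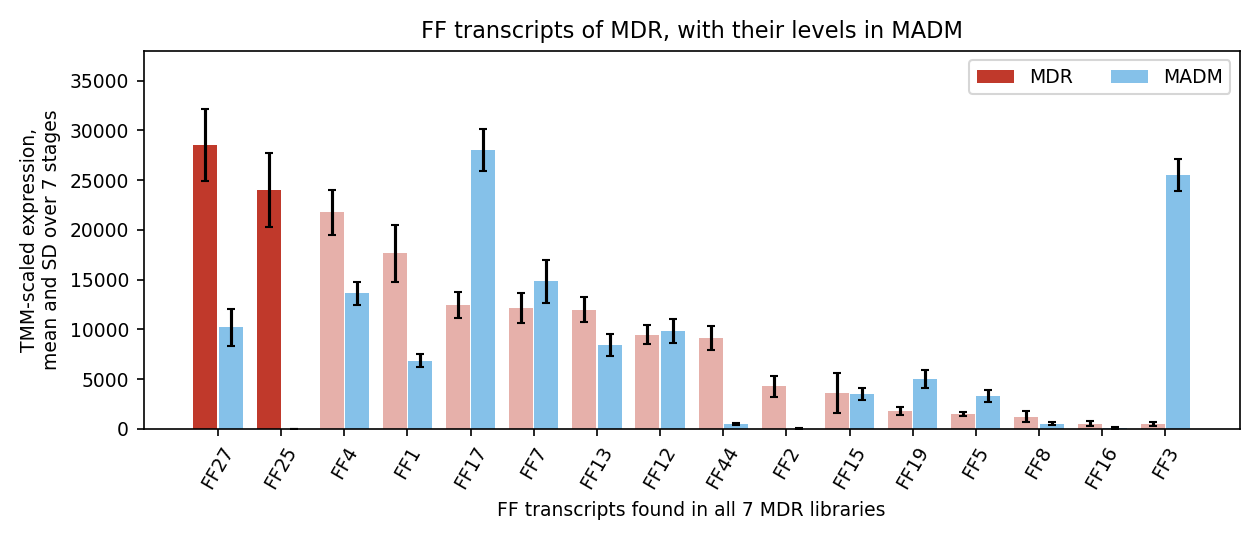
Mean level (TMM-scaled expression) of the 16 FF transcripts found in all 7 MDR libraries, ordered by their MDR mean, with the MADM mean beside each; bars show the SD over 7 stages and the darker bars are FF27 and FF25. FF27 and FF25 had the highest means in MDR, at 28512 and 23961, while FF25 was at 0 and FF27 at 10199 in MADM.

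Of the 16 FF transcripts found in every MDR library, FF25 was the only one listed at 0 in all libraries of both other male genotypes. MADM held 4 such transcripts of its own among 19, namely FF23 (18042 ± 3361), FF14 (11847 ± 1553), FF45 (5068 ± 1009) and FF22 (1141 ± 342). M001 held 5 among 16, FF10 (12800 ± 1824), FF9 (8405 ± 1920), FF29 (8558 ± 1582), FF31 (2609 ± 1377) and FF28 (483 ± 268). Such transcripts made up 14.9 ± 1.73% of the FF total in MDR, 20.7 ± 1.24% in MADM and 36.0 ± 3.62% in M001 (SD over 7 stages). MDR thus carried its own receptor as 1 abundant transcript, and M001 spread more than that share over 5.

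FF27 was 1 of 3 FF transcripts found throughout MDR and MADM and at 0 throughout M001. The other two were FF4, at 21760 ± 2281 in MDR and 13637 ± 1151 in MADM, and FF5, at 1481 ± 208 in MDR and 3298 ± 587 in MADM. The order of the genotypes was therefore not the same for the 3 receptors, with FF27 and FF4 higher in MDR and FF5 lower.

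Of the 69 FcoR transcripts, which the submitters found by searching with fester and then with FcoR sequences, 3 shared the FF25 pattern of being found in all MDR libraries and in no other male library. These were FcoR35 at 6785, FcoR37 at 3964 and FcoR13 at 218.5 on average in MDR. The FF27 pattern was shared by 2, FcoR12 (8702 in MDR and 8746 in MADM) and FcoR55 (352 in MDR and 936 in MADM).

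Within MDR, FF25 and FF27 moved together over the stages. The ratio of FF27 to FF25 in the same library, which no scaling of the library can alter, was 1.16, 1.30, 1.21, 1.19, 1.17, 1.17 and 1.16 from A1 to D. FF27 was the higher one in 7 of 7 libraries, and the ratio averaged 1.20 ± 0.0487 (SD), a coefficient of variation of 4.07%. The level of FF25 itself varied by 15.5% and that of FF27 by 12.6% over the same libraries. A2 gave the widest ratio and the lowest level of both, and without it the ratio was 1.18 ± 0.0175 over 6 stages, with a range of 1.16 to 1.21. The SD of the log2 ratio was 0.06 for FF25 and FF27, the smallest of the 120 pairs among the 16 FF transcripts found in every MDR library. The next pair, FF13 and FF44, had 0.11, and the median pair 0.46. In MADM, where FF25 was at 0, the pairs of FF27 that kept the steadiest ratio were those with FF23, at 0.11, and FF14, at 0.15, ranks 3 and 14 of 171 pairs, with a median of 0.31. These ratios are a description of 7 libraries per genotype, and abundant transcripts have less counting error in a ratio than rare ones. Whether reads shared between FF25 and FF27 enter their ratio was not tested.

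**Figure D3:**
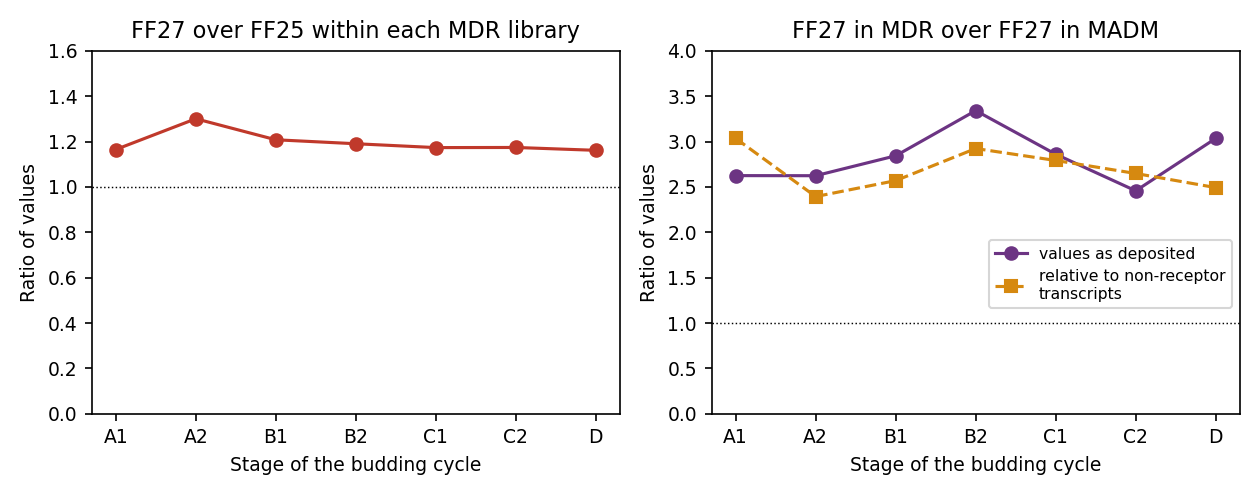
Ratio of FF27 to FF25 within each MDR library (left) and ratio of the FF27 level in MDR to that in MADM at the same stage (right, as deposited and scaled to the signalling and Fuhc transcripts), by stage of the budding cycle. The left ratio lay between 1.16 and 1.30 with A2 highest, and the right one between 2.46 and 3.34 as deposited.

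The stages asked whether the receptors change over the budding cycle. In MDR, FF25 was lowest at A2 and highest at C2, at 0.699 and 1.17 times its mean over stages, a highest level 1.68 times the lowest. FF27 in MDR was lowest and highest at the same stages, at 0.764 and 1.16 times its mean, and 1.51 times apart. In MADM, FF27 was again lowest at A2 and highest at C2, at 0.814 and 1.31 times its mean. Of the 16 FF transcripts found throughout MDR, 7 were lowest at A2, and FF25 and FF27 were the only 2 that were highest at C2. In MADM, 4 of 19 were highest at C2 (FF12, FF14, FF23 and FF27) and 2 were lowest at A2. The FF total of MDR was lowest at A2 too, 135510 against a median of 162410 over stages.

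For FF27, but not for FF25, the stage with the lowest level depended on the scaling. The sum of the 23 signalling and Fuhc transcripts was also lowest at A2 in MDR, at 633080, and highest at D, at 837150. Scaled to that sum, FF25 in MDR remained lowest at A2 (18129), but FF27 in MDR was lowest at D, at 23020 against 23572 at A2. In MADM, scaled FF27 was also lowest at D (9236) and stood at 9848 at A2. The highest stage stayed C2 for both receptors in MDR, at 27248 for FF25 and 31984 for FF27, and for FF27 in MADM, at 12079. The part of library make-up in the A2 level was not tested beyond this scaling.

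With the sub-stages A1 and A2, B1 and B2, and C1 and C2 taken as pairs and D as a single library, neither receptor passed the test over the stage letters of MDR in limma. The fitted stage means spanned 0.34 on the log2 scale for FF25 (adjusted p = 0.753) and 0.27 for FF27 (adjusted p = 0.756). Of the 89 transcripts tested in that comparison 0% passed an adjusted p of 0.05, and 15 had an unadjusted p under 0.05, of which 3 were among the 19 FF, 4 among the 47 FcoR and 8 among the 23 remaining transcripts. Single libraries moved these spans: without A1 they were 0.68 for FF25 and 0.53 for FF27 (adjusted p = 0.189 and 0.207), and without A2 they were 0.22 and 0.18 (adjusted p = 0.525 and 0.553). The 2 sub-stages of letter A differed more than the letters did, with 26853 at A1 and 16753 at A2 for FF25.

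Over the 7 stages of MDR and MADM together, with genotype as a block, the FF27 stage means spanned 0.64 on the log2 scale and did not pass either (limma, adjusted p = 0.152; unadjusted p = 0.00821). Here 0.99% of 101 transcripts passed, which was 1 transcript, FcoR62 (adjusted p = 0.000324), and 13 had an unadjusted p under 0.05, FF27 being the only one of 23 FF transcripts among them. A stage effect on FF27 was thus not resolved with 1 library per stage and genotype, and these p-values do not show that its level was constant.

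Outside the males, FF25 was found in 4 of 8 ALDH libraries and in 1 of 16 ampullae libraries. Individual 2B stood at 31034 in the positive fraction and 23987 in the negative one. Individual 7 stood at 0 in the positive fraction and 5093 in the negative one. Individual 6 stood at 134 in the positive fraction and 0 in the negative one, and individual 1 at 0 in both fractions. The level in the positive fraction of 2B was above the highest MDR library, and that in the negative fraction lay within the MDR range, so a high level was not limited to the colonies labelled male; the labels do not give the sex of 2B. FF25 made up 15.0% of the FF total in the positive fraction of 2B and 14.2% in the negative one, ranking 2 in both, and 4.21% in the negative fraction of 7, where it had rank 9.

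The ALDH fractions asked whether sorted cells differ from the rest. The FF25 difference between positive and negative fractions was 0.37 in 2B, -12.32 in 7, 7.08 in 6 and 0 in individual 1, on the log2(value + 1) scale, so it went both ways. In limma with individual as a block it was -1.22 ± 3.33 (SE, adjusted p = 0.867), and without individual 7 it was 2.48 (adjusted p = 0.563). Of 89 transcripts 0% passed, and 9 had an unadjusted p under 0.05, of which 1 was among the 19 FF transcripts. The value of 134 in the positive fraction of 6 was near the detection level of that library, 62.6. The negative fraction of 6 had a detection level of 207, so by this rough guide its 0 may not mark a difference from 134.

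The fractions of individual 7 also differed in which receptors they held. Of 61 FF and FcoR transcripts found in both fractions of 2B, 18 were at 0 in the positive fraction of 7, and 12 of these 18 were present in its negative fraction. All 5 FF transcripts among the 18 were present there. The 18 were picked for being at 0 in the positive fraction of 7, so these counts are a description only. Receptors found in the positive fraction of 7 and at 0 in its negative one were not counted. The negative fraction held 21 FF and 36 FcoR transcripts, and the positive one 17 FF and 41 FcoR. FF25 stood at 21.2% of its level in the negative fraction of 2B, FF14 at 30.8%, FF45 at 33.0%, FF31 at 23.5% and FF18 at 66.2%. The overlap of detected receptors, shared transcripts divided by those in either library, was 0.667 between the negative fraction of 7 and each fraction of 2B, against 0.595 between the positive fraction of 7 and each fraction of 2B. For comparison, the positive fraction of individual 1 overlapped with the fractions of 2B by 0.63 (positive) and 0.61 (negative), little less than the negative fraction of 7 did. The 2 fractions of 7 overlapped by 0.62. In the other individuals the 2 fractions overlapped by 0.813 (2B), 0.731 (1) and 0.683 (6). FF25 was 1 of the receptors found in 2B and in the negative fraction of 7 and listed at 0 in the positive fraction of 7. Some of these were not particular to 2B. FF18 stood at 1970 in the positive and 2072 in the negative fraction of individual 6, and FcoR55 at 1369 in the negative fraction of individual 1. The highest ALDH-negative level was 10805 for FF14 and 1527 for FF31, against 10715 and 1483 in the negative fraction of 2B. An individual other than 2B and 7 thus held FF14 and FF31 too. Whether the 5093 of FF25 there belongs to individual 7 was not tested.

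**Figure D4:**
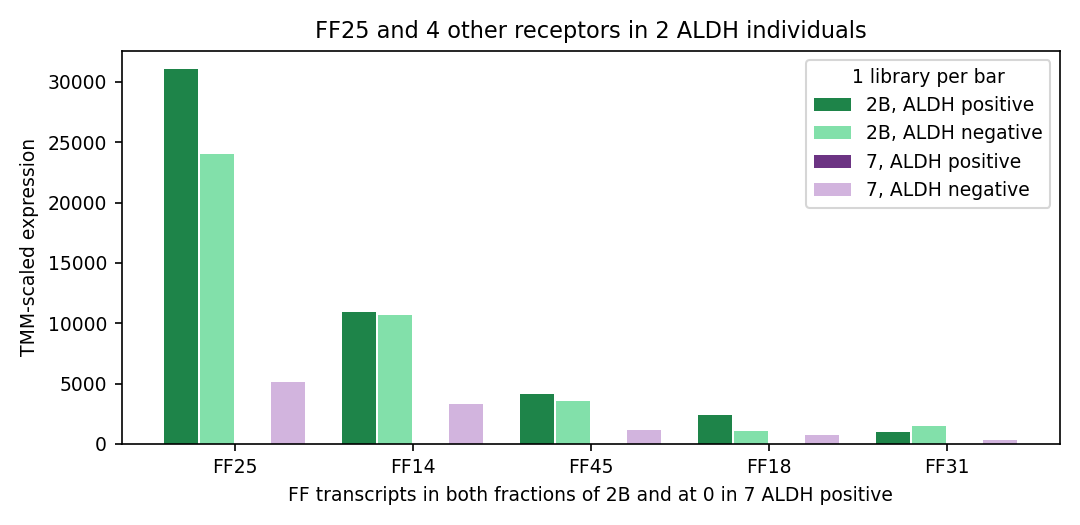
Level (TMM-scaled expression) of the 5 FF transcripts found in both ALDH fractions of individual 2B and at 0 in the positive fraction of individual 7, 1 library per bar. All 5 were present in the negative fraction of individual 7, with FF25 at 5093 there against 23987 in the negative fraction of 2B.

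FF27 was listed at 0 in all 8 ALDH libraries and present in all 3 blood libraries, at 1020 in FL3, 2028 in FLLC2 and 862 in LFC4. FF25 was at 0 in the same blood libraries, whose detection levels were 36.7 to 59.2. The FF27 mean in blood was 1303 ± 632 (SD, n = 3), and it made up 0.913%, 1.87% and 0.998% of the FF total. Blood FF27 did not overlap with either male genotype that carried it, since the highest blood level was 2028 and the lowest MADM level 8303. By level, FF27 was ordered MDR, MADM and blood, with no overlap of their libraries, while FF25 was high in 2B and MDR, which overlapped. This order describes levels of the kind that chose the receptors. Other FF transcripts also stood well apart between MDR and MADM. FF44 averaged 9134 ± 1196 in MDR and 505 ± 94.4 in MADM, and FF17 12450 ± 1302 and 28050 ± 2092. The share of all transcripts without overlap between these groups was not counted. Blood differed from the male colonies in both tissue and individual, and the part of each in the gap cannot be told apart.

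Both receptors were listed at 0 in all 12 IA6 libraries, whose detection levels were 19.2 to 68.9, and in all 5 BSA libraries. The BSA libraries SB04, SB05 and SB06 had detection levels of 84.1, 169 and 121. In SB07-09 and SB10-11, which held 0 and 2 FF transcripts, those levels were 2337 and 2034, above every blood value of FF27. A level like that of blood may therefore not have been detectable there. A trace of FF25 stood in replicate 2 of SMGO ampullae, at 138, where the detection level was 72.1, and a trace of FF27 in replicate 2 of SMH whole bodies, at 27.5, where that level was 9.11. No other library of ampullae or whole bodies held either. Neither receptor could be tested between IA6 fractions (0 of 8 libraries of 81A and 81C) or between ampullae and whole bodies of SMGO and SMH (1 of 13 libraries each), because 4 and 6 libraries with a value of at least 1 were needed. Over all 77 libraries, FF25 was found in 12 and FF27 in 18, and they were found together in 7, all of MDR. At a minimum of 200, FF25 remained in 10 and FF27 in 17.

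**Figure D5:**
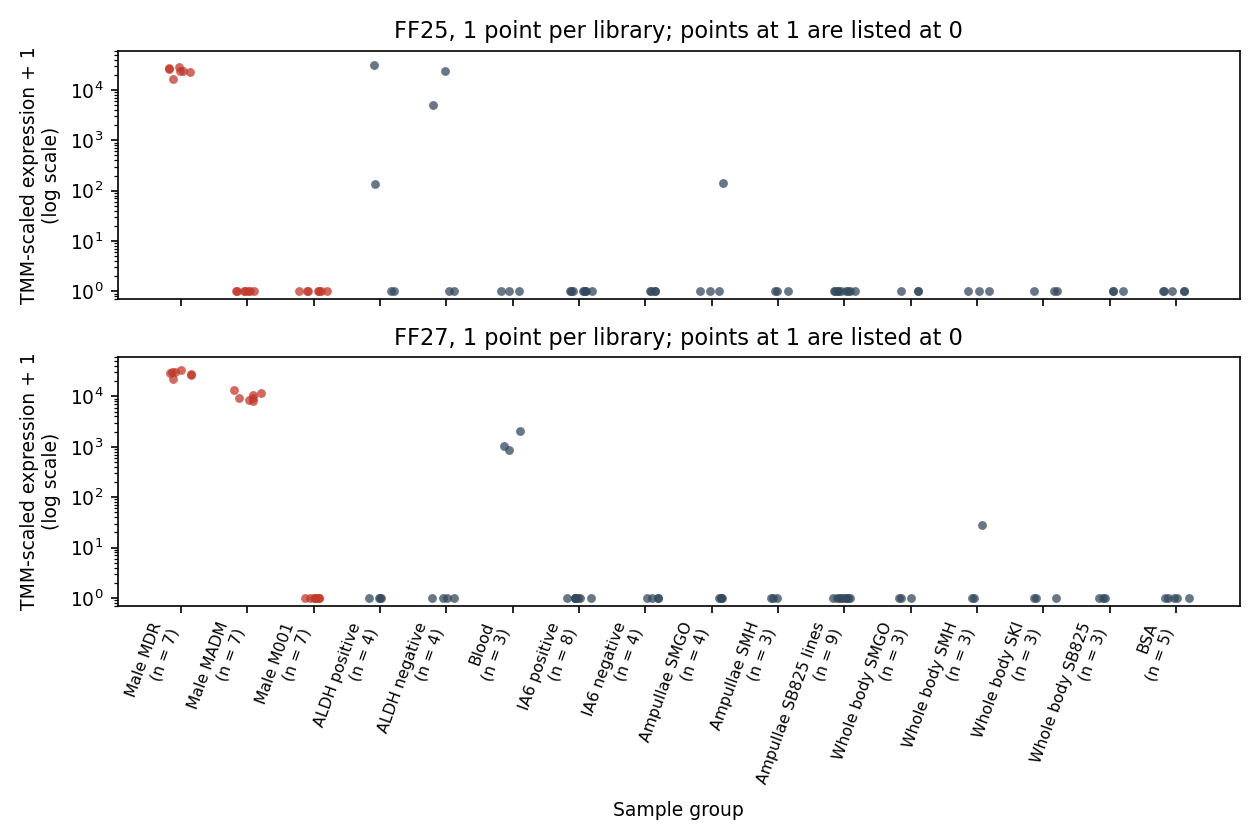
Level plus 1 (TMM-scaled expression, log scale) of FF25 and FF27 in every library, by kind of sample, with male genotypes in red and 1 point per library. FF25 was high in MDR and in the ALDH libraries of individual 2B, and lower, at 5093, in the ALDH-negative library of individual 7. FF27 was high in MDR and MADM and lower in blood.

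The transcripts whose levels ran most like those of the 2 receptors differed between them. Over 34 combinations of kind of sample, fraction and colony, the highest Pearson r with FF25 on the log2(mean + 1) scale was that of FcoR35 (0.87), followed by FF18 (0.67) and FcoR55 (0.56). For FF27 it was FF30 (0.68), FF41 (0.62) and FcoR51 (0.39), and the r between FF25 and FF27 was 0.13. These are descriptions over points from a table limited to 137 transcripts. Of the 34 points, 22 to 28 were at 0 for both transcripts of a pair, except FF27 and FcoR51 with 12. Over the 77 single libraries, FcoR35 stayed first for FF25 (0.94) and FF30 for FF27 (0.72), while FF18, FcoR55, FF41 and FcoR51 left the first 3 of their receptor.

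FcoR35 accompanied FF25 in both places where it was high. In MDR it lay between 5849 and 7762, which was 21.6% to 40.4% of FF25 in the same library (median 28.9%), and the highest share fell at A2, where FF25 was lowest. In 2B it stood at 5562 in the positive fraction and 3839 in the negative one, 17.9% and 16.0% of FF25. In individual 7 it stood at 32.5 in the positive fraction and 1196 in the negative one, the same direction as FF25. FcoR35 was at 0 in every MADM and M001 library. FF18, in contrast, was at 0 in MDR. In individual 6 it stood at 1970 in the positive fraction and 2072 in the negative one, where FF25 was at 134 in the positive fraction and 0 in the negative one, so it accompanied FF25 neither there nor in MDR.

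FF30 was found in 10 libraries, all with FF27. In MADM it lay between 1515 and 3264, 17.7% to 34.6% of FF27, and in MDR, where FF27 was higher, it was 0 to 183. FF41 was at 15085 to 19339 in blood and was found in no male library. The closest partner of FF27 was thus strong in 1 of its 2 male genotypes, and the second one was shared with blood alone.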

How the data were processed

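The authors deposited 1 table of signal values. It is named for TMM, and TPM scaled by TMM is inferred here from its library sums (308919 to 1466577). The tools were kallisto, RSEM and Trim Galore, per the submitters' processing notes, with versions not given in the sources used here. Per the labels' protocols, poly-A libraries were sequenced as paired ends with 2 RNA kits at 2 centres, and since the labels tie no library to a kit or centre, batches could not be fitted. Of 158 value columns, 77 were matched to a sample by name and 81 are not used here, since no label describes them. The BSA sample SB01-03 was not analysed.

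Values were taken as log2(value + 1), and a transcript was tested where it reached 1 in as many libraries as the smallest group holds. The SMGO ampullae libraries named technical were averaged as 1 replicate in the group means of FF25 and FF27. They were counted singly among the 13 libraries of ampullae and whole bodies, where no fit was made. Differences were fitted across all passing transcripts by limma 3.58.1 (R 4.3.3) with a variance trend and Benjamini-Hochberg adjustment at 0.05. The fit was run on simulated data whose changes were much larger than the stage spans and the mean ALDH difference of the receptors. That run therefore does not show whether effects of their size could be found. Genotype and individual entered as blocks, as the labels give them. The labels do not say which samples came from separate colonies, and the spread behind each p-value may therefore be technical. Alternatives were a pseudocount of 10, no filter, no variance trend, scaling to signalling and Fuhc transcripts, all male genotypes together over 7 stages, ALDH fractions without the individual, and leaving out each library or individual. Groups came from the labels. Python 3.11.15 with numpy 2.4.6, pandas 2.3.3, scipy 1.17.1 and matplotlib 3.10.9 was used.

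The receptors and lists were chosen with earlier results of these data known. By rule, named transcripts are FF25, FF27, the 3 most like each by Pearson r, the FF transcripts held by 1 male genotype, and called transcripts. Others (FF1, FF4, FF5, FF12, FF13, FF17, FF44 and the FcoR transcripts that share a male pattern, and FF18, FF31 and FF45 in ALDH cells) were named after their values were seen.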

Additional observations from a re-analysis of the deposited data

Results flagged for a closer look

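The FF25 level of 31030 in the positive fraction of individual 2B stood far from the other 3 ALDH-positive individuals, which were at 0, 0 and 134, with a gap of 0.996 of the range of the group. The ratio of FF27 to FF25 of 1.30 at stage A2 stood apart from the other 6 MDR stages, which lay between 1.16 and 1.21, with a gap of 0.665 of the range. Among 7 such groups examined, chance marks about 1 in 20.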

How the results depend on the processing

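Of 49 alternative fits of the 4 receptor tests (FF25 and FF27 over stage letters of MDR, FF27 over stages of MDR and MADM, FF25 between ALDH fractions), 48 kept the side of the threshold and, for the ALDH difference, its direction. The stage fits are F tests and have no direction. Over MDR stage letters, the fit without a filter gave the same values as the main fit, and leaving out D removed that letter. The exception was FF25 between ALDH fractions without individual 7, where the difference turned to 2.48; with 1 individual left out it ranged from -3.98 to 2.48. Without individual 2B, FF25 was present in too few libraries to be tested. Over these alternatives the adjusted p of limma lay between 0.189 and 0.855 for FF25 and between 0.207 and 0.878 for FF27 over MDR stage letters, and between 0.102 and 0.638 for FF27 over stages of MDR and MADM, where 0.638 came from 4 stage letters in place of 7 stages. A fit of 7 stages over all 3 male genotypes is not counted, since FF25 was at 0 in 2 of them and FF27 in 1, and it is no test of MDR alone. The number of transcripts passing over MDR stage letters was 0, and 0 to 4 with 1 library left out (4 without A2). It was 1 with a pseudocount of 10, without the variance trend or scaled to signalling and Fuhc transcripts. Over stages of MDR and MADM it was 1, and 1 to 3 with 1 library left out; between ALDH fractions it was 0 in every alternative. The same scaling moved the median ALDH difference of all transcripts to 0.33 from 0.06 (log2), and FF25 to -1.11. The cause of these moves was not tested. The ALDH fractions were paired by individual. With no replicate block, an alternative chosen after seeing the data, the FF25 difference was again -1.22 (limma, adjusted p = 0.989). For IA6 fractions and ampullae against whole bodies, whose groups also share replicate numbers, FF25 and FF27 were at 0 in nearly all libraries and could not be fitted. With 1 library per stage and unknown depth, small stage effects and low levels could not be resolved.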
